A study of Mus musculus with 10 samples.

Results

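The genes described here encode the chains of the collagens, the main structural proteins of the vessel wall, and they were taken as every gene whose platform symbol is Col, a number, a and a number. Of the 44 such genes in the RefSeq gene table, 42 had at least 1 of 82 probe sets named by that symbol alone, and the brightest of these on average over the arrays stood for the gene. Col28a1 and Col6a6 had none and were not analysed here. Of the 42 genes, 37 were above the detection filter (a log2 value over 4 on at least 4 arrays) and were tested, among 14321 tested genes in all.

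Expression was measured in total RNA of aorta of male mice, strain C57BL/6 on Affymetrix arrays. Knockout mice were Ptgds-/-, lacking lipocalin-type prostaglandin D synthase (L-PGDS), an enzyme that makes prostaglandin D2. Neither the missing exons nor the age is given in the labels. Wild type mice were the controls. The arrays held 5 knockout replicates (1 to 5) and 4 wild type replicates (1, 3, 4 and 5). The labels call them biological; the column of wild type replicate 2 is empty. All values are read as log2, where 1 unit is a factor of 2.

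Every collagen is built of chains with long runs in which glycine recurs at a fixed spacing, and the chains wind around each other into a helix inside the cell that makes them. Fibrillar types I, III and V form the load-bearing fibrils of the media and adventitia, type IV forms the net of basement membranes around smooth muscle cells and under the endothelium, and type VI forms beaded filaments beside them. Others sit on the surface of fibrils (FACIT, fibril-associated collagens with interrupted triple helices), span the cell membrane, or join basement membrane to matrix. Levels of different probe sets cannot be set against each other on arrays, so each chain is compared with itself across arrays.

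The targeted gene went with the labels on every array. Ptgds stood at 3.92 ± 0.29 (SD, n = 5) in knockout aortas and at 9.22 ± 0.75 (SD, n = 4) in wild type aortas (adjusted p 0.00059 in limma). On 4 of the 5 knockout arrays it was under the detection floor of 4, so the size of the difference is not given. Wild type replicate 3 had the lowest mean correlation with the other arrays, 0.983, against 0.990 to 0.992 for the other arrays. Sympathetic neuron markers, of which 5 of 6 were named on the array, summed to a log2 value of 7.11 to 11.00 on the knockout arrays and 7.02 to 13.05 on the wild type arrays, with the highest values on knockout replicate 1 and wild type replicate 3. Smooth muscle markers (6 of 6) summed to 15.79 to 15.83 on the knockout arrays and 15.65 to 15.79 on the wild type arrays, and fibroblast markers (7 of 8) summed to 14.12 to 14.50 on the knockout arrays and 14.06 to 14.66 on the wild type arrays. In RNA of a whole tissue, fewer cells of a type and less RNA per cell cannot be told apart.

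No collagen chain differed between the genotypes past an adjusted p of 0.05. With limma and Benjamini-Hochberg adjustment over all genes, 0 of 37 chains passed, where 8 of 14321 tested genes (0.0559%) did, and the smallest adjusted p of a chain was 0.192 (Col12a1). At an unadjusted p under 0.05 there were 3 chains, Col5a1 higher and Col12a1 and Col13a1 lower in the knockout, where 19.9% of all tested genes lay under that p. On the brightest probe sets, knockout and wild type values overlapped for all 37 chains (for Col20a1 by 1 shared value), whereas 6.76% of all tested genes had groups that did not overlap. By sign alone, 25 chains stood higher in the knockout and 12 stood lower; their median change was 0.048, against 0.027 over all tested genes, of which 56.7% were higher.

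The following bounds hold for the brightest probe set of each chain. The 95% interval of the change lay inside 1.5-fold in either direction for 32 of the 37 chains and inside 1.25-fold for 19. The exceptions to the 1.5-fold limit were Col5a3, Col8a2, Col9a1, Col13a1 and Col23a1. Of the 14 chains with a mean log2 value of 6 to 12, 10 intervals lay inside 1.5-fold. Of the 10 chains with a mean under 6, 9 did. Some of these dim chains, such as Col2a1, Col9a2, Col10a1 and Col11a2, stood near the detection floor. A narrow interval there does not bound a change in expression. The 13 chains with a mean log2 value over 12 include types I, III and VI, Col4a1 and Col4a2. All 13 of their intervals lay inside 1.5-fold, and the bound farthest from 0 was 1.33-fold (Col5a1). Their probe sets stood above percentile 95.9 on every array. Whether a change in expression shows in full that high on the scale was not tested. On dimmer probe sets, changes were larger for Col3a1 (0.13), Col5a2 (0.16) and the dimmest of Col1a2 (0.31). They were smaller for Col1a1, Col4a1, Col4a6, Col5a1, Col6a2 and Col18a1.

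**Figure D1:**
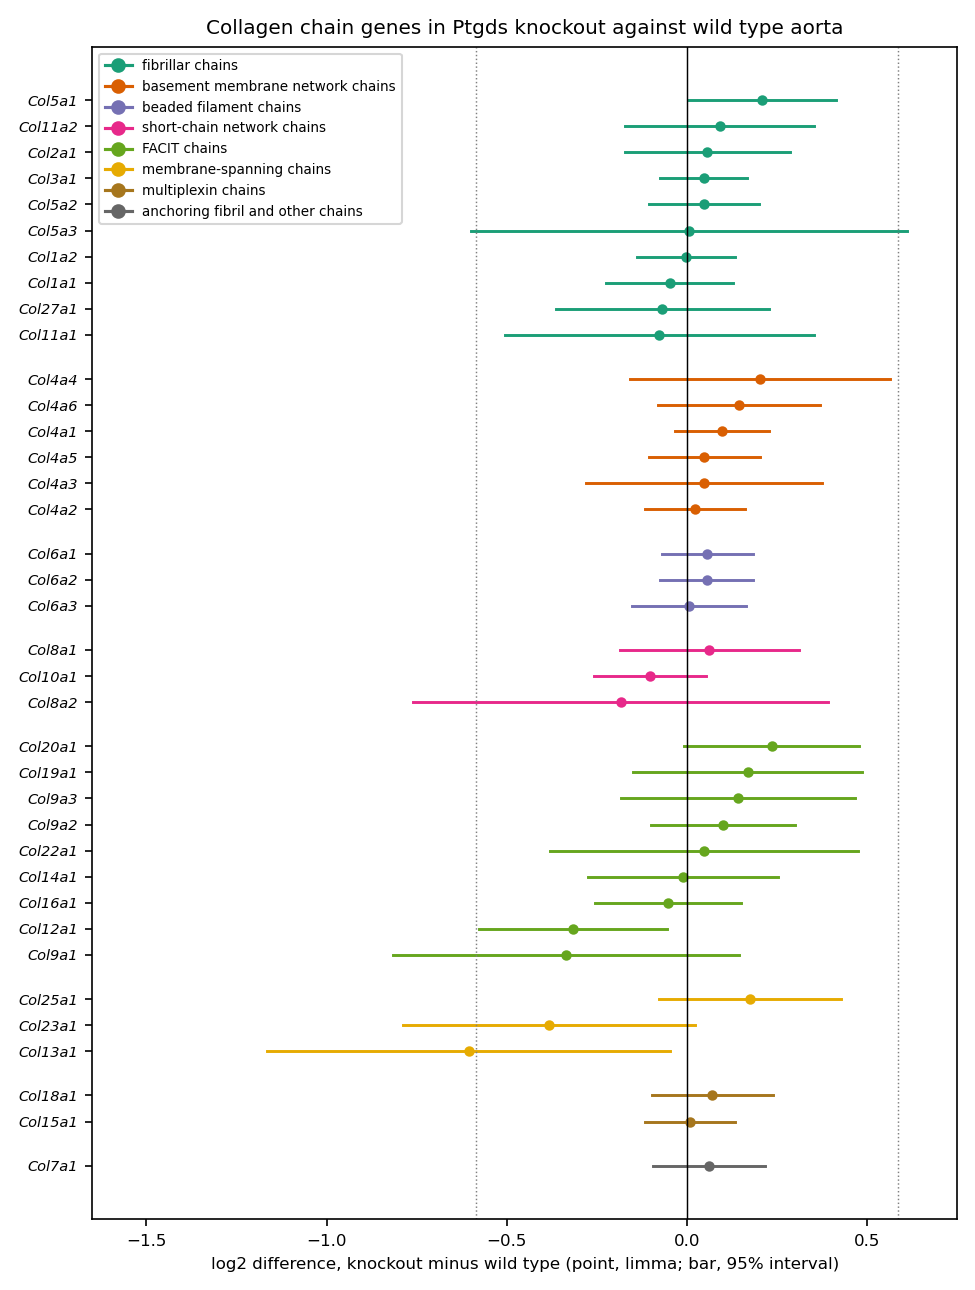
Log2 difference between knockout and wild type aorta (x axis, limma estimate as a point, 95% interval as a bar) for the 37 tested collagen chains (y axis), coloured by class; dotted lines mark 1.5-fold either way. The intervals of 5 chains (Col5a3, Col8a2, Col9a1, Col13a1 and Col23a1) cross a dotted line, and the intervals of 34 chains include 0.

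Among the fibrillar chains, 10 of 11 genes were tested. In sign 6 were higher and 4 were lower in the knockout, and their median change was 0.027. Col1a1, the α1 chain of type I collagen, had log2 values of 13.30, 13.23, 13.45, 13.17 and 13.48 on knockout replicates 1 to 5, against 13.35, 13.33, 13.33 and 13.47 on wild type replicates 1, 3, 4 and 5. Its partner Col1a2, the α2 chain, had 13.64, 13.57, 13.70, 13.51 and 13.65 in knockout and 13.59, 13.57, 13.58 and 13.73 in wild type aortas. Both sets of values were interleaved: the lowest knockout array, replicate 4, and the highest wild type array, replicate 5, were the same for the 2 chains. The changes were −0.048 (95% interval −0.22 to 0.13) for Col1a1 and −0.0019 (−0.14 to 0.13) for Col1a2. These 2 chains and Col4a2 are given on every array because of their partners and not by the naming rule. Col3a1, the chain of type III collagen, which makes homotrimers and co-assembles with type I, had 13.22, 13.19, 13.28, 13.21 and 13.32 in knockout and 13.17, 13.16, 13.16 and 13.29 in wild type aortas. Its wild type replicate 5 lay above 4 of the 5 knockout arrays, and the change was 0.047 (−0.074 to 0.17). The further probe set of Col3a1 stood at 0.13 (SE 0.082).

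Type V collagen nucleates type I fibrils and limits their diameter. Col5a1, its α1 chain, had 12.42, 12.44, 12.54, 12.47 and 12.72 in knockout aortas, against 12.40, 12.12, 12.47 and 12.24 in wild type aortas. Wild type replicate 4 lay among the knockout arrays, and knockout replicate 5 lay above all others. The change was 0.21 (SE 0.090, 95% interval 0.0056 to 0.41, unadjusted p 0.045, adjusted p 0.241 in limma), and the further probe sets of Col5a1 stood at 0.20 and 0.17. Without any 1 array the change ran from 0.15 to 0.26. Col5a1 lies on chromosome 2 like Ptgds, 71 protein-coding genes away in the gene order of GRCm38.p6, and what that position contributes was not tested. Its partner Col5a2 changed by 0.047 (−0.11 to 0.20) on its brightest probe set and by 0.16 (SE 0.074) on the other.

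Col5a3, the α3 chain of type V, is given on every array as a choice made after its values were seen. It had a mean of 7.48 in both genotypes, with SDs of 0.24 (n = 5) in knockout and 0.63 (n = 4) in wild type aortas. Its values were 7.71, 7.36, 7.36, 7.75 and 7.22 on the knockout arrays, against 7.19, 8.42, 7.20 and 7.09 on the wild type arrays. Wild type replicate 3 stood above every other array, and knockout replicates 4 and 1 came next. The Schwann cell markers (Mbp, Sox10 and Pmp2, the 3 of 6 analysed here) were set beside Col5a3, from several marker lists, after its values were seen. They summed to 11.67, 9.66, 10.81, 11.80 and 10.95 on the knockout arrays, against 10.79, 12.33, 10.72 and 9.50 on the wild type arrays. The sums, and Mbp and Sox10 alone, were highest on the same 3 arrays. Pmp2, near the floor, was highest on wild type replicate 3 and next on knockout replicate 5 (3.99), with 3.46 on knockout replicate 1. The part of these markers in the values of Col5a3 was not tested.

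The cartilage-type fibrillar chains were near the detection floor. Col2a1, the chain of cartilage type II, averaged 4.11 ± 0.20 (SD, n = 5) in knockout and 4.05 ± 0.054 (SD, n = 4) in wild type aortas. Col11a1, the α1 chain of type XI, ran from 3.79 to 4.51 on the knockout arrays and from 4.04 to 4.81 on the wild type arrays. Col11a2, the α2 chain, had 4.01, 4.23, 4.05, 4.24 and 4.33 in knockout and 4.33, 3.91, 4.23 and 3.86 in wild type aortas, fully interleaved, with a change of 0.091 (−0.17 to 0.35). Of the 8 chondrocyte markers, 5 passed the detection filter. Acan, the proteoglycan aggrecan, ran from 8.37 to 9.09 on the knockout arrays and from 8.53 to 9.33 on the wild type arrays. Hapln1 ran from 9.05 to 9.40 on the knockout arrays and from 8.64 to 9.65 on the wild type arrays. Sox9 and Snorc were over 4 on every array, Matn3 on some, and Cnmd on wild type replicate 3 alone (4.405). Matn1 and Ucma were under 4 on all 9 arrays. On Col27a1, a long fibrillar chain first known from cartilage, both probe sets were kept, with changes of −0.069 and 0.014. Col24a1 was over 4 on 1 array and was not tested.

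All 6 type IV chains were higher in sign in the knockout on their brightest probe sets, where 56.7% of all tested genes were higher. Their changes had a median of 0.073, and 0 of 6 had an unadjusted p under 0.05 in limma (0 by adjusted p). Col4a1 and Col4a2 make the α1α1α2 helix found in nearly every basement membrane. Their genes lie head to head with 0 protein-coding genes between them, and the promoter windows of the RefSeq table (250 bases before to 50 after the start, GRCm38.p6) overlap by 78 bases on opposite strands. They are printed because the levels of both chains moved together across arrays, as described further on. What the shared stretch contributes to that was not tested. Col4a3 and Col4a4, and Col6a1 and Col6a2, also have 0 protein-coding genes between them, and these pairs did not pass on all 9 arrays. Capitals mark the CCAAT motif, the TATAAA motif and the GGGCGG motif on either strand.
Col4a1 (chr8:11312777-11313076, minus strand): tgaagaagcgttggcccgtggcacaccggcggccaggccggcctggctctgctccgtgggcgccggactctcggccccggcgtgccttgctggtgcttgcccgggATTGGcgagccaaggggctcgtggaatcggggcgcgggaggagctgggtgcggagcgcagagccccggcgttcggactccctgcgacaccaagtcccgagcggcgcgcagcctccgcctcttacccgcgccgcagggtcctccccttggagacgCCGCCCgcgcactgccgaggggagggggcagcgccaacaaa
Col4a2 (chr8:11312555-11312854, plus strand): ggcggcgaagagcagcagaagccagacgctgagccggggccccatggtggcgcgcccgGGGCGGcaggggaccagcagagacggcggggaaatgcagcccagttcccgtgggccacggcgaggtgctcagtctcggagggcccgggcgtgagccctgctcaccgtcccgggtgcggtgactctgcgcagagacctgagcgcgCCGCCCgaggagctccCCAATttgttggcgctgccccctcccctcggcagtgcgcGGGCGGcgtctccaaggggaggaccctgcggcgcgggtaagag

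The Col4a1 window held 1 CCAAT and 1 GGGCGG match, the Col4a2 window 1 and 3, and neither held TATAAA. The GGGCGG match of Col4a1 lies in the overlap and is the last printed GGGCGG match of Col4a2, read on the other strand. Over all 32851 windows of that length, 37.4% held CCAAT, 35.7% GGGCGG and 13.6% TATAAA on either strand. Of the 38 windows of 35 collagen genes, 34.2% held CCAAT, 60.5% GGGCGG and 13.2% TATAAA. These are matches of letters, not sites in use.

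Col4a1 had 13.28, 13.13, 13.27, 13.19 and 13.31 on the knockout arrays, against 13.12, 13.09, 13.22 and 13.11 on the wild type arrays. Wild type replicate 4 lay inside the knockout range and the other wild type arrays below it; the change was 0.098 (−0.032 to 0.23, adjusted p 0.370 in limma), and a further probe set stood at 0.090. Col4a2 had 13.22, 13.06, 13.22, 13.19 and 13.26 in knockout and 13.19, 13.08, 13.26 and 13.14 in wild type aortas, and the groups overlapped throughout, with a change of 0.023 (−0.12 to 0.16).

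The minor type IV chains form the networks of kidney, lung and smooth muscle basement membranes. Col4a6, which pairs with α5 in the smooth muscle network, had 12.02, 12.11, 12.21, 12.12 and 12.34 in knockout and 12.20, 11.78, 12.12 and 11.97 in wild type aortas. Its lowest array was wild type replicate 3 and its highest knockout replicate 5, with a change of 0.14 (−0.079 to 0.37). Without wild type replicate 3 it was 0.065. Col4a4 had 10.17, 10.30, 10.43, 9.86 and 10.40 in knockout and 10.31, 9.79, 9.76 and 10.27 in wild type aortas, a change of 0.20 (−0.16 to 0.56); its probe sets differed in sign, from −0.022 to 0.20. Knockout replicate 4 lay with wild type replicates 3 and 4 at the low end. Col4a5 stood at 0.048 (−0.11 to 0.20) and Col4a3 at 0.048 (−0.28 to 0.38), with the further probe set of Col4a3 at −0.040.

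Type VI collagen, the beaded filament that links cells to the surrounding fibrils, gave the most even values of any class with over 2 tested chains, with a median SE of 0.057. Col6a1 had 13.34, 13.35, 13.37, 13.35 and 13.49 in knockout and 13.31, 13.24, 13.38 and 13.36 in wild type aortas. Col6a2 had 13.13, 13.08, 13.12, 13.11 and 13.27 in knockout and 13.12, 13.01, 13.11 and 13.10 in wild type aortas. In both, knockout replicate 5 was highest and wild type replicate 3 lowest, and the remaining 7 arrays were mixed. Col6a3 had 12.10, 11.99, 12.13, 12.06 and 12.27 in knockout and 12.19, 12.00, 12.14 and 12.07 in wild type aortas. The changes were 0.057 (−0.069 to 0.18), 0.055 (−0.074 to 0.18) and 0.0061 (−0.15 to 0.16). Col6a4 and Col6a5 were over 4 on 1 and 0 arrays and were not tested.

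Among the short-chain network collagens, type VIII is a product of smooth muscle and endothelial cells and lies under the endothelium. Col8a1 had 9.30, 8.82, 9.18, 9.12 and 9.39 in knockout and 9.09, 9.08, 9.03 and 9.20 in wild type aortas, and the wild type values all lay inside the knockout range, with a change of 0.063 (−0.18 to 0.31). Col8a2 spread widely, at 7.11, 6.59, 6.88, 6.01 and 7.03 in knockout and 7.09, 6.37, 6.88 and 7.30 in wild type aortas, a change of −0.18 (−0.76 to 0.39). It was −0.0057 when knockout replicate 4 was left out, and −0.36 when wild type replicate 3 was. Col10a1, the type X chain of hypertrophic cartilage, had 4.12, 4.07, 4.31, 4.31 and 4.30 in knockout and 4.27, 4.33, 4.38 and 4.31 in wild type aortas, near the floor, with the same value to all deposited digits on 3 arrays.

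The FACIT chains gave 9 tested genes, of which 5 were higher and 4 lower in sign, around a median of 0.048. Col12a1, whose type XII collagen coats type I fibrils in tissue under tension, had 7.29, 7.12, 7.21, 7.01 and 7.16 in knockout aortas, against 7.42, 7.15, 7.56 and 7.75 in wild type aortas. Wild type replicate 3 lay inside the knockout range and the other wild type arrays above it. The change was −0.32 (SE 0.12, 95% interval −0.58 to −0.055, unadjusted p 0.023, adjusted p 0.192 in limma), and the other kept probe set stood at −0.25 (SE 0.15). Without any 1 array the change ran from −0.42 to −0.22.

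Col20a1, the chain of type XX collagen, a little-studied FACIT, had 6.40, 6.40, 6.41, 6.54 and 6.84 in knockout aortas, against 6.10, 6.40, 6.26 and 6.38 in wild type aortas. The highest wild type array, replicate 3, held the same value as the lowest knockout array, replicate 1, to all deposited digits. The change was 0.24 (SE 0.11, adjusted p 0.264 in limma) on this probe set. The 4 kept probe sets of Col20a1 were all higher in the knockout, by 0.13 to 0.54. The largest was 0.54 (SE 0.11), on a further probe set with 6.41, 6.51, 6.77, 6.54 and 6.64 in knockout and 6.09, 5.77, 6.30 and 5.96 in wild type aortas. There the groups did not overlap, with an unadjusted p of 0.00094 and an adjusted p of 0.131 in limma over the 34945 named probe sets. Like Col5a1 and Col9a3, Col20a1 lies on chromosome 2. It is 1602 protein-coding genes from Ptgds and Col9a3 is 1592, and what these positions contribute was not tested.

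Col9a1, the α1 chain of cartilage type IX, had 4.63, 5.13, 5.15, 4.92 and 5.33 in knockout and 5.29, 5.09, 5.07 and 6.02 in wild type aortas, a change of −0.34 (−0.82 to 0.15), and −0.12 without wild type replicate 5, its highest array. The adventitial fibril chain Col14a1 stood at −0.0099 (−0.27 to 0.25), Col16a1 at −0.053 (−0.25 to 0.15), Col19a1 at 0.17 (−0.15 to 0.49), Col9a2 at 0.10, Col9a3 at 0.14 and Col22a1 at 0.048. The 3 kept probe sets of Col19a1 ran from −0.17 to 0.17, so its sign depends on the probe set.

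**Figure D2:**
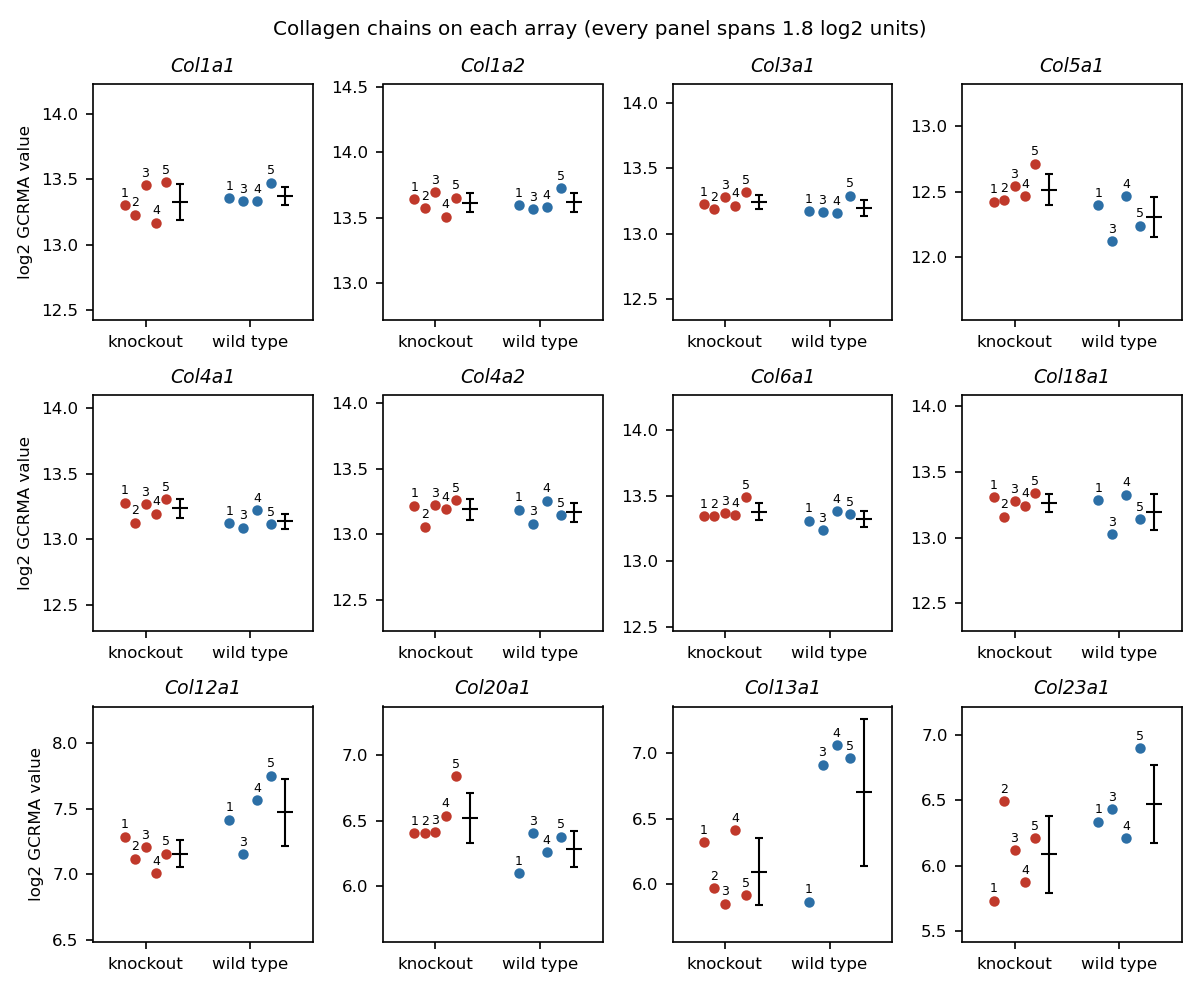
Log2 values of 12 collagen chains on each array (y axis), knockout on the left and wild type on the right; points are arrays labelled by replicate, and the bar beside them is the mean ± SD. Each panel spans the same range, so the bright chains of the upper rows appear tight, and Col13a1 shows wild type replicate 1 at 5.87 below the other wild type arrays.

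Of the 3 tested collagens that span the cell membrane, 2 were lower and 1 was higher in sign in the knockout. Col13a1, whose type XIII collagen sits at cell adhesions and at the neuromuscular junction, had 6.32, 5.97, 5.85, 6.41 and 5.92 in knockout aortas, against 5.87, 6.91, 7.06 and 6.96 in wild type aortas. Wild type replicates 3, 4 and 5 lay above every knockout array, and wild type replicate 1 lay at the low end of the knockout range. The change was −0.61 (SE 0.25, 95% interval −1.16 to −0.047, unadjusted p 0.036, adjusted p 0.222 in limma). Without wild type replicate 1 it was −0.88 (SE 0.14, 95% interval −1.21 to −0.56, adjusted p 0.017 in limma), or 1.85-fold higher in wild type, and Col13a1 was then the 1 chain of 37 past the threshold. In that fit 7.34% of all tested genes passed, 1051 in number, and 2.10% passed toward lower values, so a call there is not rare. Without any other single array the adjusted p of Col13a1 was not under 0.05, with a highest value of 0.437. Cardiomyocyte markers (6 of 6 named), picked here from several marker lists, summed to 9.37, 11.13, 9.50, 10.75 and 9.55 on the knockout arrays. On the wild type arrays the sums were 9.20, 10.36, 12.03 and 10.11, lowest on wild type replicate 1. The sum was nearly as low on knockout replicate 1, where Col13a1 was 6.32. It was second highest on knockout replicate 2, where Col13a1 was 5.97. The part of these markers in the result was not tested. Col13a1 has 1 probe set.

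The Col13a1 promoter window is printed beside that of Col1a2, as the chain with the largest difference beside a fibrillar chain with a change near 0, both from the RefSeq table in GRCm38.p6 with the same motifs in capitals.
Col1a2 (chr6:4505368-4505667, plus strand): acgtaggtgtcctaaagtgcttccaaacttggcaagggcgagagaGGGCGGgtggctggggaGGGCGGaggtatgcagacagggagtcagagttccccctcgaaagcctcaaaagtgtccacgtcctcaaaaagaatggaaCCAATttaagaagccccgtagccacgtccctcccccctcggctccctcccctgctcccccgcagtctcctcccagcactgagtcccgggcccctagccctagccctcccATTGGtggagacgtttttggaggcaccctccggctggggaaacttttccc
Col13a1 (chr10:61979059-61979358, minus strand): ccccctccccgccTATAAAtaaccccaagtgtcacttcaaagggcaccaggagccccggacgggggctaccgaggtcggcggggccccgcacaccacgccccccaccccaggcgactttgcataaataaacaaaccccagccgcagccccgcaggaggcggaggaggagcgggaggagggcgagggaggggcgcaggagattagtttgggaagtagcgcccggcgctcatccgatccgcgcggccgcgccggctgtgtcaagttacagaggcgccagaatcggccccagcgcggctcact

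The Col13a1 window held 1 TATAAA and neither CCAAT nor GGGCGG, and the Col1a2 window held 2 CCAAT and 2 GGGCGG matches and no TATAAA. The windows of Col1a1, Col4a3, Col12a1 and some others were not in the table used here.

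Col23a1, a membrane collagen of type XXIII that is shed by furin, had 5.73, 6.49, 6.12, 5.88 and 6.21 in knockout and 6.34, 6.43, 6.21 and 6.90 in wild type aortas. Knockout replicate 2 lay among the wild type arrays. Its 3 probe sets were all lower in the knockout, by −0.38 (SE 0.18, adjusted p 0.274 in limma over genes), −0.25 and −0.39. Without wild type replicate 5 the first was −0.24 (adjusted p 0.522 in limma). Col25a1, the membrane collagen of type XXV needed for motor innervation in mouse muscle, had 5.32, 5.53, 5.46, 5.53 and 5.92 in knockout and 5.27, 5.46, 5.37 and 5.41 in wild type aortas, a change of 0.18 (−0.078 to 0.43) with knockout replicate 5 the highest, and 0.083 without that array. Col17a1, the hemidesmosome collagen of epithelia, was over 4 on 0 arrays, from 2.53 to 2.70 in knockout and from 2.39 to 2.88 in wild type aortas.

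The multiplexins are basement membrane collagens whose C-terminal fragments include endostatin. Col18a1 had 13.31, 13.16, 13.28, 13.24 and 13.34 in knockout and 13.28, 13.03, 13.33 and 13.14 in wild type aortas, a change of 0.071 (−0.097 to 0.24). Col15a1 had 12.10, 12.10, 12.18, 12.02 and 12.21 in knockout and 12.14, 12.08, 12.16 and 12.08 in wild type aortas, a change of 0.0080 (−0.12 to 0.13). The genotypes were interleaved in both. Col7a1, the anchoring fibril chain of skin, had 5.35, 5.55, 5.47, 5.47 and 5.60 in knockout and 5.47, 5.47, 5.29 and 5.47 in wild type aortas, and 5 of its 9 values were identical to all deposited digits. Col26a1 was over 4 on 0 arrays and was not tested.

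Many chains had their highest or lowest value on the same array. Knockout replicate 5 was the highest of the 9 arrays for 21 of 37 chains (56.8%), against 22.8% of all tested genes. Wild type replicate 3 was the lowest for 13 of 37 (35.1%), against 25.5% of all tested genes. The median deviation of the chains from their own means was 0.14 on knockout replicate 5 and −0.10 on wild type replicate 3, and between −0.043 and 0.014 on the other 7 arrays. Without knockout replicate 5 the median change between genotypes was 0.020, and without wild type replicate 3 it was 0.015, both under the 0.022 and 0.025 of all tested genes in the same fits. The summed adipocyte markers (5 of 7 named) ran from 14.14 to 14.64 on the knockout arrays and from 14.42 to 14.69 on the wild type arrays, lowest on knockout replicate 5, and the summed sympathetic neuron markers were highest on wild type replicate 3; their part in these values was not tested.

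**Figure D3:**
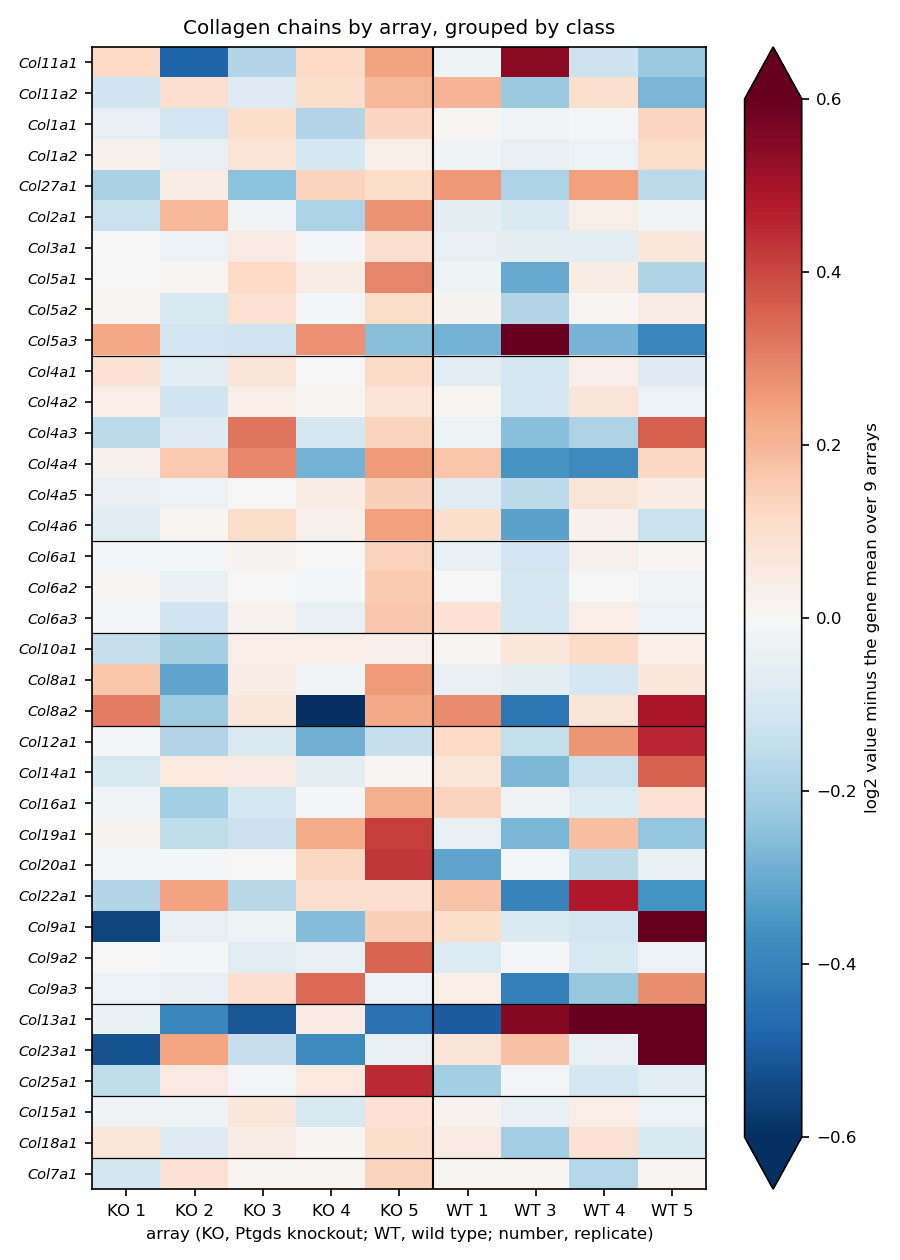
Log2 value minus the mean of the same chain over 9 arrays, for 37 collagen chains (rows, grouped by class and separated by lines) on knockout arrays (left of the vertical line) and wild type arrays (right). The column of knockout replicate 5 is the reddest, highest for 21 chains, and the column of wild type replicate 3 is blue for most chains with exceptions such as Col5a3, Col11a1 and Col13a1.

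Chains of the same molecule or fibril were compared for whether they move together once the genotype means are removed, in 8 pairs over 9 arrays, with exact two-sided permutation within genotype (2880 orders) and adjustment over the 8 pairs. Col4a1 and Col4a2 gave Pearson's r = 0.94 (exact permutation p 0.00069, adjusted 0.0056) and Spearman's rho = 0.97 (exact p 0.0010, adjusted 0.0056). Without knockout replicate 2 and wild type replicate 4, the arrays farthest from the median of Col4a1, r was 0.85. Col1a1 and Col1a2 gave r = 0.88 (exact permutation p 0.0024, adjusted 0.0097) and rho = 0.90 (exact p 0.0014, adjusted 0.0056), with r = 0.93 without knockout replicates 3 and 5. That pair had an adjusted exact p of 0.051 without wild type replicate 5.

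Col1a1 and Col3a1 gave r = 0.87 (exact permutation p 0.0076, adjusted 0.020) and rho = 0.82 (exact p 0.0076, adjusted 0.020), with r = 0.82 without knockout replicates 3 and 5. The adjusted exact p of this pair was 0.059, 0.065, 0.065 and 0.051 without knockout replicates 1, 3 and 5 and wild type replicate 5. The other 5 pairs did not pass on all 9 arrays. Each passed without some single array: by adjusted exact p, Col5a1 and Col5a2 without wild type replicate 5 (0.044), Col4a3 and Col4a4 without knockout replicate 4 (0.047) or wild type replicate 1 (0.019), both type VI pairs without wild type replicate 1 (0.019), and Col8a1 and Col8a2 without knockout replicate 4 (0.047). Without other single arrays the adjusted exact p rose to 0.238 for Col5a1 and Col5a2 and 0.184 for Col4a3 and Col4a4. It rose to 0.192 for Col6a1 and Col6a2, 0.417 for Col6a1 and Col6a3, and 0.417 for Col8a1 and Col8a2. By exact permutation, r was 0.91 for Col6a1 and Col6a2 (p 0.029, adjusted 0.0505), with rho 0.78 (p 0.037, adjusted 0.059) and r 0.76 without knockout replicate 5 and wild type replicate 4. For Col5a1 and Col5a2, exact permutation gave r 0.74 (p 0.038, adjusted 0.0505) and rho 0.70 (p 0.064, adjusted 0.064), with r 0.73 without its 2 farthest arrays. For Col4a3 and Col4a4 it gave r 0.74 (p 0.036, adjusted 0.0505) and rho 0.75 (p 0.062, adjusted 0.064), with r 0.73 without its 2 farthest. Col6a1 and Col6a3 gave r 0.75 (exact p 0.050, adjusted 0.057) and rho 0.72 (exact p 0.051, adjusted 0.064), with r 0.43 without knockout replicate 5 and wild type replicate 4, so the relation rests on those arrays. Col8a1 and Col8a2 gave r 0.50 (exact p 0.245, adjusted 0.245) and rho 0.80 (exact p 0.027, adjusted 0.054), with r 0.71 without 2 arrays.

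These correlations have a high background. Among the 78 pairs of the 13 bright chains all had r over 0, with a median of 0.69, and the arrays share their normalization. Ranked by r with Col4a1 among 14320 other genes, Col4a2 was number 5; Col1a2 was number 12 and Col3a1 number 18 for Col1a1; Col6a2 was number 95 for Col6a1 and Col5a2 number 1234 for Col5a1. For comparison, 2 probe sets of the same gene correlated with r of 0.67 for Col1a1, 0.84 for Col1a2, 0.89 for Col3a1, 0.89 for Col4a1 and 0.61 for Col6a2 (n = 9 arrays each, as a description).

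**Figure D4:**
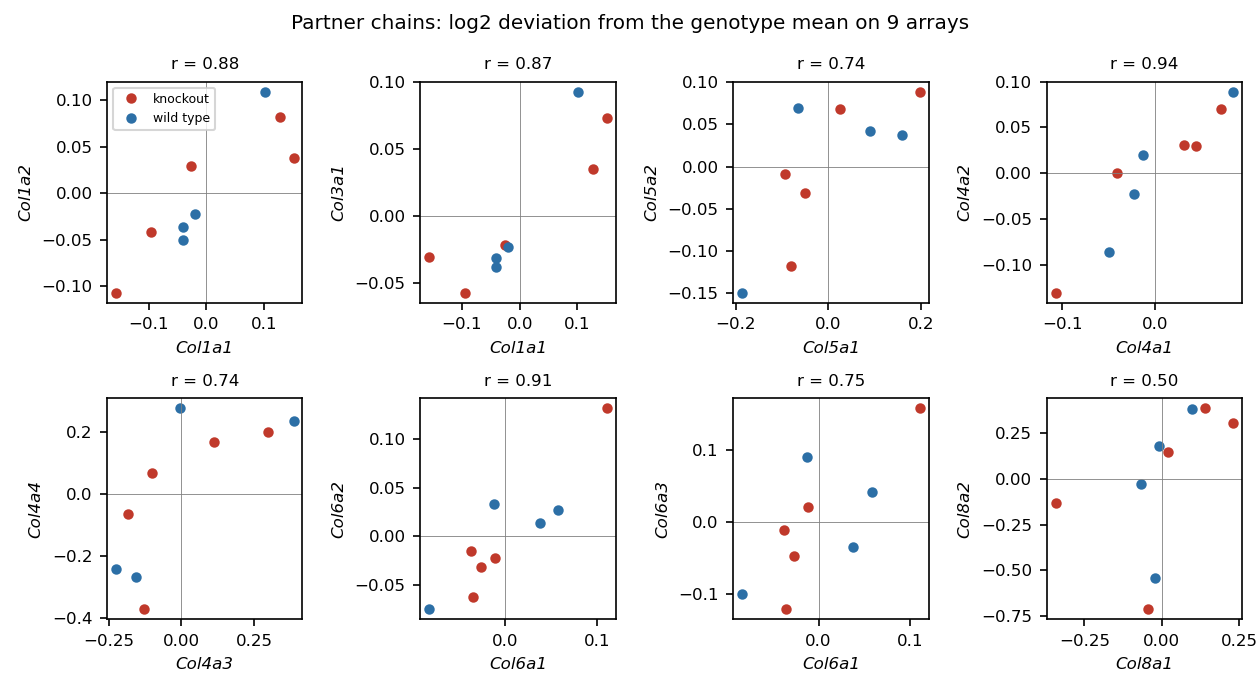
Deviation of each array from its genotype mean on the log2 scale, for the first chain of a pair (x axis) against the second (y axis), with knockout arrays in red and wild type arrays in blue. The points of Col4a1 and Col4a2 lie closest to a line (r = 0.94) and those of Col8a1 and Col8a2 are the most scattered (r = 0.50).

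The genes that make, bind and break down collagen were read from 6 lists of 80 genes, of which 74 were named on the array and 64 were tested. In limma 0 of 64 passed after adjustment over all genes (background 0.0559%), and 8 had an unadjusted p under 0.05, 4 higher and 4 lower (background 19.9%). Their median change was 0.014, against 0.027 over all tested genes.

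Among 23 genes of chain modification, folding and secretion, 11 were higher and 12 lower. P4ha2, a catalytic subunit of prolyl 4-hydroxylase, had 9.21, 9.06, 9.31, 9.51 and 9.21 in knockout and 9.83, 9.31, 9.63 and 9.67 in wild type aortas. Wild type replicate 3 lay under knockout replicates 3 and 4, and the change was −0.35 (SE 0.12, adjusted p 0.177 in limma). The galactosyltransferase gene Colgalt2 stood at −0.30 (SE 0.10) and Crtap, part of the prolyl 3-hydroxylase complex, at 0.20 (SE 0.075). The other prolyl 4-hydroxylase α subunits, named after their values were seen, stood at −0.28 (P4ha1, SE 0.17) and −0.31 (P4ha3, SE 0.12, near the floor with means of 4.28 in knockout and 4.59 in wild type aortas). Serpinh1, the collagen chaperone HSP47, stood at −0.035 (−0.26 to 0.19).

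Of 4 tested genes of propeptide removal, 2 were higher and 2 lower: the procollagen C-proteinase gene Bmp1 stood at 0.13 (SE 0.091), its enhancer Pcolce2 at −0.21 (SE 0.17) and the N-proteinase gene Adamts3 at −0.11 (SE 0.097). Among the cross-linking oxidases 3 of 4 were higher in sign, with Loxl1 at 0.15 (SE 0.11), Lox at −0.11 (SE 0.12) and Loxl4 at 0.13 (SE 0.15).

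Among 16 tested fibril regulators, 7 were higher and 9 lower, with a median of −0.036. Thbs1, the matricellular protein thrombospondin-1, had 7.81, 7.28, 8.73, 8.24 and 8.15 in knockout and 8.64, 9.002, 8.73 and 10.07 in wild type aortas, a change of −1.07 (SE 0.35, adjusted p 0.164 in limma). Knockout replicate 3 lay among the wild type arrays. Prelp, a small leucine-rich proteoglycan, stood at 0.11 (SE 0.064) and Postn, periostin, at −0.10 (SE 0.063).

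Of 7 tested collagen receptors, 6 were higher in sign. Itga10, the α10 integrin chain that binds collagen in cartilage, had 8.95, 9.36, 9.55, 9.15 and 9.57 in knockout and 9.03, 8.31, 8.82 and 8.48 in wild type aortas, a change of 0.66 (SE 0.18, unadjusted p 0.0050, adjusted p 0.136 in limma). Wild type replicate 1 lay above knockout replicate 1, and the remaining arrays of the groups were apart. Without wild type replicate 1, Itga10 stood at 0.78 (SE 0.17, adjusted p 0.038 in limma), and P3h4, of the prolyl 3-hydroxylase family and outside the naming rule, at 0.27 (SE 0.065, adjusted p 0.049), in the fit where 7.34% of all genes passed. Mrc2, the receptor that takes up collagen for breakdown, stood at 0.30 (SE 0.12, adjusted p 0.215), and Ddr1, a collagen-binding tyrosine kinase, at 0.080 (SE 0.062).

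Of 10 tested genes of collagen breakdown, 7 were higher and 3 lower. Fap, fibroblast activation protein, stood at 0.32 (SE 0.14, adjusted p 0.239 in limma), the inhibitor gene Timp3 at −0.10 (SE 0.052) and cathepsin K, Ctsk, at −0.18 (SE 0.13).

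**Figure D5:**
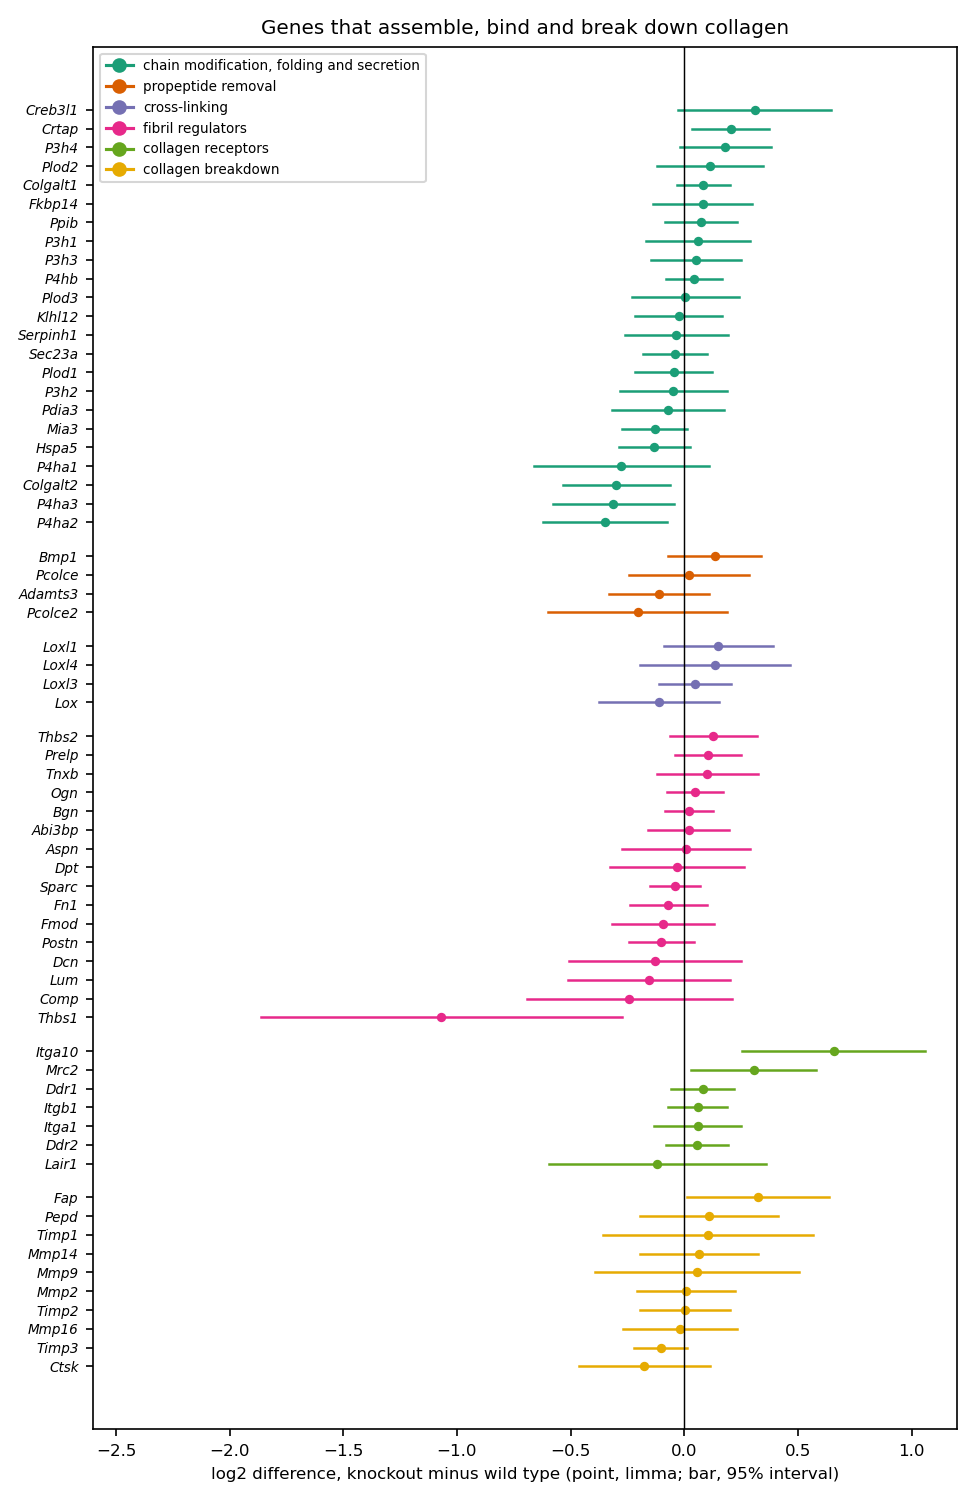
Log2 difference between knockout and wild type aorta (x axis, limma estimate as a point, 95% interval as a bar) for the 64 tested genes that assemble, bind and break down collagen (y axis), coloured by list. Thbs1 at −1.07 and Itga10 at 0.66 lie farthest from 0, and most intervals include 0.

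Where a gene had more than 1 kept probe set, these served as a check within the same RNA. Of the 37 chains, 22 had several kept probe sets, and in 16 of them all changes had the same sign. The signs differed for Col1a2, Col4a3, Col4a4, Col19a1, Col22a1 and Col27a1. The widest case among the fibrillar chains was Col1a2, where the bright probe sets stood at −0.0019 and 0.0076 and a dimmer one, at 7.23 in knockout and 6.92 in wild type aortas, at 0.31 (SE 0.14).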

How the data were processed

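The deposited values are 1 log2 value per probe set and array, made by the authors with GCRMA, which corrects background, normalizes across arrays and summarizes probes, per the submitters' processing notes; its version and probe annotation are not given in the sources used here. The log2 scale is read from the values. Of 10 listed samples, wild type replicate 2 has an empty column and was left out, per the labels, so 9 arrays were used.

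Of 45101 probe sets, 34945 are assigned to a single gene by the platform table. Probe sets over a log2 value of 4 on at least 4 arrays were kept (26504), and the probe set with the highest mean stood for its gene (14321 genes). limma 3.58.1 in R 4.3.3 (lmFit, eBayes) compared knockout with wild type, with no covariate and Benjamini-Hochberg adjustment over all genes at 0.05. Changes are knockout minus wild type. The procedure was tested on simulated data with independent noise for each gene, where it had to recover changes of 4-fold with little bias. Recovery of changes as small as those of the chains is not given here, and array effects shared between genes were not simulated. The number of arrays limits the precision, and p-values rest on the spread between these samples.

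Named genes were the 3 chains with the smallest p in each class, or all tested chains of classes with at most 3, and the 3 genes with the smallest p of each pathway list; additions are marked. The members, lists and marker lists were chosen with earlier results of these data known. Alternatives were other normalization, filters, probe set rules, limma options, a replicate block and leaving out arrays.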

Additional observations from a re-analysis of the deposited data

Results flagged for a closer look

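Each of 38 genes (the tested chains and Ptgds) was checked in both genotypes for an array far from the rest of its group by Dixon's test. Of 76 such groups 9 had such an array, where chance gives about 1 in 20, or 3.8. The genes share the same arrays, and the share over all tested genes was not taken. The count is therefore not read as a trait of the collagen chains.

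Knockout replicate 5 stood high for 3 chains. Col6a1 was 13.49 there, against 13.34 to 13.37 on the other knockout arrays, Col6a2 was 13.27, against 13.08 to 13.13, and Col9a2 was 4.55 against 4.13 to 4.20. Wild type replicate 5 stood high for Col1a1 at 13.47, against 13.33 to 13.35 on the other wild type arrays, and for Col3a1 at 13.29, against 13.16 to 13.17. Wild type replicate 3 stood high for Col5a3 at 8.42, against 7.09 to 7.20, and low for Col5a2 at 13.05, against 13.23 to 13.26. Wild type replicate 1 stood low for Col13a1 at 5.87, against 6.91 to 7.06. Wild type replicate 4 stood low for Col7a1 at 5.29, while the other wild type arrays held 1 identical value of 5.47.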

How the results depend on the processing

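The count of collagen chains past the threshold was 0 under each alternative run, except 1 (Col13a1, −0.88) without wild type replicate 1. Genes of assembly, receptors and breakdown gave 0, except 2 without that array. The count over all genes, 8, was 19 with a floor of 6, 33 with trend and robust options, 73 with array weights, 3 without both neuron-rich arrays (knockout replicate 1 and wild type replicate 3, with the highest sympathetic neuron markers; chosen after seeing the data), and 2 to 1051 without any 1 array. The median change of the chains was 0.048, ran from 0.015 to 0.060 without any 1 array, and was 0.012 with array weights, where that of all genes was 0.024. Col6a3 changed sign with array weights (−0.016) and without both neuron-rich arrays (−0.024), and ran from −0.034 to 0.036 without any 1 array, as did Col15a1 from −0.013 to 0.033. The other chains that the naming rule gives kept their sign.

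With the replicate number as a block, 0 of 14321 genes and 0 chains passed, and the median of the chains was 0.056. Between arrays of the same number in both genotypes, deviations had correlations of −0.36, −0.15, 0.060 and 0.21 for numbers 1, 3, 4 and 5. No test was run on these correlations, so they cannot decide whether such arrays share more than a number.

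With array medians set equal, r was 0.81 for Col5a1 and Col5a2, 0.75 for Col4a3 and Col4a4, 0.95 for Col6a1 and Col6a2 and 0.83 for Col6a1 and Col6a3, all then past the threshold. Without any 1 array r ran from 0.82 to 0.95 for Col1a1 and Col1a2, 0.82 to 0.94 for Col1a1 and Col3a1, 0.56 to 0.88 for Col5a1 and Col5a2, 0.88 to 0.97 for Col4a1 and Col4a2, 0.69 to 0.84 for Col4a3 and Col4a4, 0.77 to 0.95 for Col6a1 and Col6a2, 0.48 to 0.87 for Col6a1 and Col6a3, and 0.41 to 0.72 for Col8a1 and Col8a2. The causes were not tested.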

Other observations

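Identical values recur between arrays. Of the 37 tested chains, 10 (27.0%) had the same value to all deposited digits on 2 or more arrays and 2 (Col7a1 and Col10a1) on 3 or more, against 23.8% and 5.56% of all tested genes. Order among such arrays cannot be read.

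Skeletal muscle markers (6 of 6 named) summed to a log2 value of 12.72 on knockout replicate 3 and to 6.99 to 7.57 on the other knockout arrays, against 7.06 to 7.54 on the wild type arrays.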
